A study of Cavia porcellus with 12 samples.

Results

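The miRNAs described here come from the imprinted DLK1-DIO3 domain, whose miRNA gene cluster is among the largest in placental mammals. The miRNA genes of this domain are expressed from the maternally inherited chromosome together with the long noncoding RNAs MEG3, MEG8 and MEG9, whereas the protein-coding genes DLK1, RTL1 and DIO3 are expressed from the paternal chromosome. They lie in an upstream group, some of whose hairpins are antisense to RTL1, and in a downstream group that runs from miR-379 to miR-410 and beyond. Each hairpin, or precursor, is cut by Drosha and Dicer into a 5p and a 3p arm, and the arm that is loaded into Argonaute guides repression of mRNAs that pair with its seed near the 5′ end. These miRNAs are known for their high levels in brain and placenta, and some have been studied in the developing and injured heart.

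Ventricular cardiomyocytes were isolated by enzymatic dissociation from the hearts of female adult Hartley guinea pigs and kept at room temperature, and their small RNAs were sequenced. The 12 libraries form 4 groups of 3, numbered C1 to C3, namely DMSO 1 h and DMSO 22 h (vehicle controls) and DOX 1 h and DOX 22 h, in which the cells were exposed to 10 µM doxorubicin (DOX, an anthracycline chemotherapeutic agent) for 1 h or 22 h. Freshly dissociated cells survive for a limited time in culture, and whether the libraries came from separate animals is not given in the sources used here. Reads had been assigned to human miRNA hairpins, so each entry of the 3 deposited tables is a sequence with a human precursor name and a start position within the human hairpin. Cluster members were the entries whose name ended exactly in 1 of 45 human precursors of the domain. With these, 141 of 2412 entries and 34 of 287 listed precursors belonged to the cluster.

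Of the 10 precursors of the upstream group, 7 were found, namely hsa-mir-127, hsa-mir-136, hsa-mir-337, hsa-mir-370, hsa-mir-431, hsa-mir-432 and hsa-mir-493. In the miR-379/miR-410 group 27 of 35 were found. The 11 precursors without an entry were hsa-mir-433, hsa-mir-665 and hsa-mir-770 upstream, and hsa-mir-323b, hsa-mir-329-1, hsa-mir-329-2, hsa-mir-376b, hsa-mir-376c, hsa-mir-485, hsa-mir-496 and hsa-mir-541 downstream. A guinea pig hairpin that has diverged from the human sequence might not be listed under the human name, so a missing entry does not show that the miRNA was not expressed. The tables also carried 82 rows named for mature miRNAs of these precursors, of which 1, that of miR-411-5p, had a mean above 0 in the table of DOX 22 h and DOX 1 h (1.76), and nearly all signal of the cluster therefore stood in entries named by start and sequence.

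The following sequences are the most abundant entry of each of the 12 arms with the highest mean in the table of DOX 22 h and DOX 1 h, and show which molecules the levels refer to. They are written 5′ to 3′ as DNA letters, as in the tables.
miR-379-5p: gtagactatggaacgtagg
miR-411-5p: gtagaccgtatagcgtacg
miR-381-3p: tacaagggcaagctctctgt
miR-136-3p: catcgtctcaaatgagtct
miR-127-3p: ggatccgtctgagcttggct
miR-487b-3p: tcgtacagggtcatccactt
miR-493-5p: gtacatagtaggctttcatt
miR-494-3p: aaacatacacgggaaacctct
miR-127-5p: agctcagagggctctgatt
miR-656-3p: tattatacagtcaacctct
miR-337-5p: acggcttcatacaggagt
miR-337-3p: ctatatgatgcctttcct
Member entries were 14 to 21 bases long with a median of 19. By summed mean, 47.7% of the cluster was in sequences of 19 bases and 32.8% in sequences of 20 bases, against 22.7% and 59.9% for all other precursors. Much of the share at 19 bases came from the leading entries of miR-379-5p (mean 1052) and miR-411-5p (mean 1118). The difference therefore largely reflects these abundant arms and is not shown for the other members. No table of annotated mature sequences was used, so the seed is not marked and the listed ends may lie inside those of the miRNAs.

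Several members are related in sequence, as the following pairs show, with the longest stretch shared by the leading entries in capitals. The leading entries of miR-379-5p and miR-411-5p open with the same 6 bases, and those of their 3p arms end on the same 11.
miR-379-5p: GTAGACtatggaacgtagg
miR-411-5p: GTAGACcgtatagcgtacg
miR-379-3p: tgtaacatGGTCCACTAAC
miR-411-3p: tgtaacacGGTCCACTAAC
miR-369-3p and miR-655-3p share 11 bases, and miR-495-3p and miR-543-3p share 12.
miR-369-3p: tAATACATGGTTgatcttt
miR-655-3p: AATACATGGTTaacctcttt
miR-495-3p: acaaacatGGTGCACTTCTT
miR-543-3p: acattcgcGGTGCACTTCTTt
The leading 3p entries of hsa-mir-376a-1 and hsa-mir-376a-2 are identical over 19 bases. Each precursor nevertheless carried its own reads, with 19 and 11 reads in the DMSO 22 h library, and how reads of the shared sequence were divided is not given in the sources used here, so the levels of these 2 precursors are uncertain.

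The cluster was a minor part of the miRNA pool. It made up 0.110% of the summed means in the table of DOX 22 h and DOX 1 h, 0.0828% in the table of DOX 22 h and DMSO 22 h, and 0.179% in the table of DOX 1 h and DMSO 1 h. These means are pooled over both groups of a table and the tables were normalized separately, so the 3 shares are not a comparison of time points. The tables at 1 h and 22 h were taken to list only entries with a mean of at least 10, which leaves out weak members. The table at 22 h also lacks the leading entry of miR-411-5p, whose mean was 1118 in the table of DOX 22 h and DOX 1 h. Without hsa-mir-411 the cluster made up 0.0779%, 0.0709% and 0.126% in the same order of tables. The most abundant cluster precursor ranked 86 of 287 in the table of DOX 22 h and DOX 1 h.

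Within the cluster, most of the signal came from a few precursors. In the table of DOX 22 h and DOX 1 h, hsa-mir-379 held 30.1% of the cluster's summed mean, hsa-mir-411 held 29.2% and hsa-mir-381 held 8.92%, which together made 68.2%. All 3 belong to the miR-379/miR-410 group, which held 83.4% of the cluster against 16.6% for the upstream group. The upstream group was led by hsa-mir-136 with a summed mean of 345 and hsa-mir-127 with 315, both antisense to RTL1, followed by hsa-mir-337 (184) and hsa-mir-493 (179). Next in the downstream group were hsa-mir-487b (204), hsa-mir-494 (159), hsa-mir-369 (111) and hsa-mir-656 (100.2). The other 23 precursors had summed means under 100, from hsa-mir-154 (53.1) and hsa-mir-410 (51.7) down to hsa-mir-323a (0.567).

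**Figure D1:**
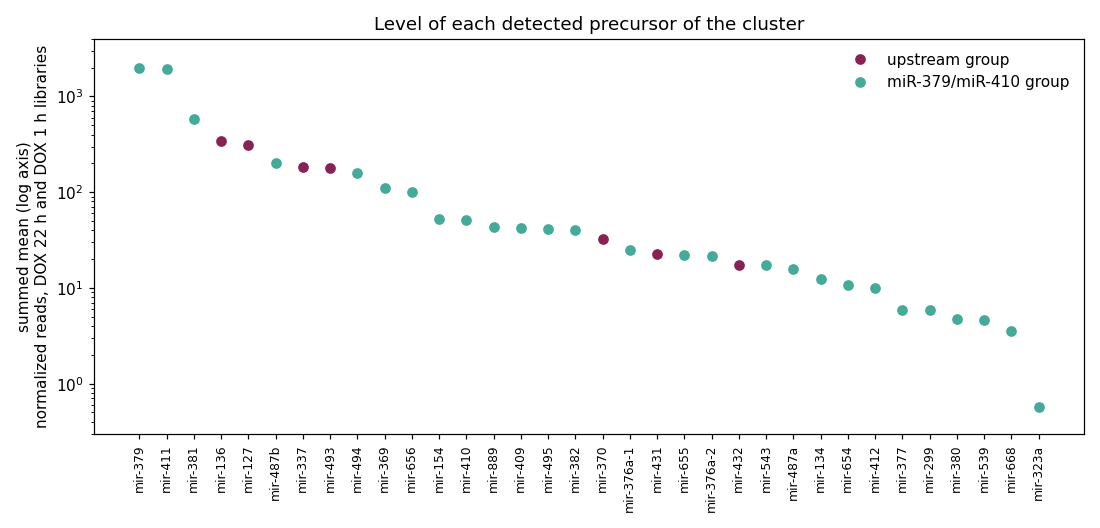
Summed mean (normalised reads, log axis) of each of the 34 precursors found, from the table of DOX 22 h and DOX 1 h. The upstream group and the miR-379/miR-410 group are coloured separately, and levels range from 1987 for hsa-mir-379 to 0.567 for hsa-mir-323a.

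The weak members included the downstream precursors hsa-mir-889, hsa-mir-409, hsa-mir-495 and hsa-mir-382, with summed means of 43.0, 42.5, 41.6 and 40.2. Below these were hsa-mir-376a-1, hsa-mir-655, hsa-mir-376a-2, hsa-mir-543, hsa-mir-487a, hsa-mir-134, hsa-mir-654 and hsa-mir-412, between 25.1 and 10.0. The weakest were hsa-mir-377, hsa-mir-299, hsa-mir-380, hsa-mir-539, hsa-mir-668 and hsa-mir-323a, between 5.92 and 0.567. In the upstream group hsa-mir-370 reached 32.4, hsa-mir-431 reached 22.6 and hsa-mir-432 reached 17.4. miR-134, a miRNA known for its role at neuronal synapses, thus stood at 12.5, and only its 5p arm was listed.

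At 1 h the order of the leading members was the same. In the table of DOX 1 h and DMSO 1 h, hsa-mir-379 held 31.9% of the cluster, hsa-mir-411 held 29.7% and hsa-mir-381 held 8.89%. That table listed 84 member entries under 26 precursors, of which 80 had a mean that could be restored. No value of either group was available there without the authors' own fold changes, which were not used, so DOX 1 h and DMSO 1 h were not compared. At 22 h, hsa-mir-411 held only 14.4%, because its leading entry, with a mean of 1744 at 1 h and 1118 in the table of DOX 22 h and DOX 1 h, was not listed in the table of DOX 22 h and DMSO 22 h.

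The labelled cell type was checked against markers in the 3 tables. All 7 cardiomyocyte precursors were present and summed to between 33.5% and 37.1% of each table. hsa-mir-143 and hsa-mir-145, which mark smooth muscle and pericytes, summed to between 19.4% and 21.0%. Nearly all of this was hsa-mir-143, the most abundant precursor of each table (19.0% to 20.6%), while hsa-mir-145 made up 0.321% to 0.385%. The endothelial hsa-mir-126 made up 3.24% to 4.41%. The 3 fibroblast precursors summed to between 0.197% and 0.266%, the red blood cell list to at most 0.00786%, the white blood cell list to at most 0.00764% and the neuron list to at most 0.00551%, with hsa-mir-124-1 and hsa-mir-124-3 without a mean. The part of these cell types in the cluster's signal was not tested.

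The 2 tables with DOX 22 h allowed whole reads of 3 libraries to be recovered from the pooled means, all with replicate number 1, namely DMSO 22 h C1, DOX 22 h C1 and DOX 1 h C1. Which reads belong to DOX 22 h and which to DMSO 22 h rests on the names of the deposited tables, by which DOX 22 h is the library they share. No value used here checks those names. If the names at 22 h were exchanged, every direction between DOX 22 h and DMSO 22 h given here would turn. The shared library would then be DMSO 22 h, so each comparison with DOX 1 h would be one of DMSO 22 h. With 1 library a group, no test of the treatment or of time was possible, and intervals are exact 95% intervals for counting error alone, which does not include variation between cultures or animals. The reads of 56 member entries were settled, all those listed in both tables, and these held 3603 reads in DMSO 22 h, 4334 in DOX 22 h and 5875 in DOX 1 h. To set libraries at equal depth by the size factors behind the means, DMSO 22 h reads were multiplied by 1.12 and DOX 1 h reads by 0.778.

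The summed settled reads of the cluster differed little between the libraries. These are the reads of 56 of 141 member entries and lack the leading entry of miR-411-5p. That entry had a mean of 1118 in the table of DOX 22 h and DOX 1 h, and its reads in each library are unknown. At equal depth the total was 4052 in DMSO 22 h, 4334 in DOX 22 h and 4569 in DOX 1 h. The log2 ratio of DOX 22 h to DMSO 22 h was 0.10 (interval 0.03 to 0.16), and that of DOX 22 h to DOX 1 h was −0.08 (−0.13 to −0.02). These 2 comparisons share the DOX 22 h library. Without hsa-mir-379 the ratios were 0.06 (−0.02 to 0.14) and −0.05 (−0.13 to 0.02), whose intervals both hold 0. The upstream group had log2 ratios of 0.07 (−0.08 to 0.22) and −0.05 (−0.19 to 0.08), and the miR-379/miR-410 group had 0.10 (0.03 to 0.18) and −0.08 (−0.14 to −0.02), so the intervals of these 2 groups overlapped in both comparisons. Within the upstream group, the 13 settled entries of the precursors antisense to RTL1 had 383 reads in DMSO 22 h, 551 in DOX 22 h and 654 in DOX 1 h. Their log2 ratio to DMSO 22 h was 0.35 (0.16 to 0.55), with an interval just above that of the cluster total, and their ratio to DOX 1 h was 0.12 (−0.05 to 0.28). These entries came from hsa-mir-127, hsa-mir-136 and hsa-mir-431 alone, and their arms differed. Against DMSO 22 h the log2 ratios were 0.68 for miR-127-3p, 0.96 for miR-127-5p and 0.29 for miR-136-3p. They were 0.44 (−0.84 to 1.86) for miR-431-5p and −1.34 for miR-136-5p, so the summed ratio is not a trait of each antisense precursor. Fewer cells of a type and less of the miRNA in each cell cannot be told apart in these libraries.

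Single arms did not follow the total in a common direction. An arm was compared when its settled entries held at least 90% of its mean at 22 h and it had at least 20 reads in the pair of libraries, which 29 member arms met in each comparison. Between DOX 22 h and DMSO 22 h, 14 arms had a log2 ratio above 0 and 15 below, with a median of −0.03 and quartiles of −0.49 and 0.29, beside a median of 0.04 and quartiles of −0.27 and 0.30 over all 266 arms compared. For DOX 22 h and DOX 1 h, again 14 were above and 15 below, with a median of −0.03 and quartiles of −0.41 and 0.36, beside −0.00 and quartiles of −0.21 and 0.28 over 262 arms. The interval of the arm's own ratio held the ratio of the cluster total for 18 of 29 arms in the comparison with DMSO 22 h and for 21 of 29 in that with DOX 1 h. Because the entries had to pass a mean of 10 in the table that includes DOX 22 h but not DOX 1 h, chance highs of DOX 22 h were favoured against DOX 1 h, for members and other arms alike. Against DMSO 22 h, a weak entry could pass through a high count in either library. Large ratios of weak arms were thus favoured in both directions.

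**Figure D2:**
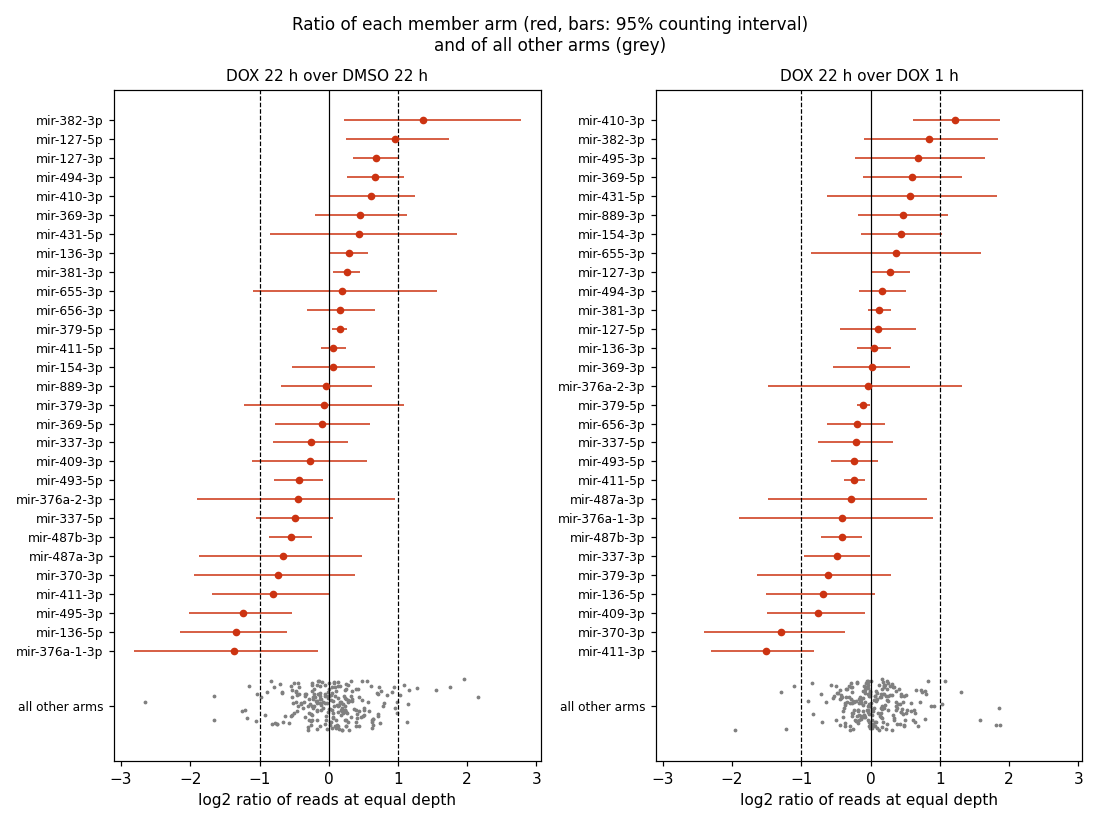
Log2 ratio of reads at equal depth for the 29 member arms (red, with 95% intervals for counting error) and for all other arms (grey, spread vertically at random), with DOX 22 h over DMSO 22 h on the left and over DOX 1 h on the right. Dashed lines mark a log2 ratio of 1 in either direction, and member arms lie on both sides of 0 in both panels.

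The leading arms of the downstream group held close to equal depth. miR-379-5p, the most abundant member, had 1319 reads in DMSO 22 h, 1655 in DOX 22 h and 2289 in DOX 1 h. Its log2 ratio was 0.16 (0.05 to 0.26) against DMSO 22 h and −0.11 (−0.20 to −0.01) against DOX 1 h, so that DOX 22 h lay between the other libraries at equal depth. miR-381-3p had 384, 517 and 608 reads in the same order of libraries, with log2 ratios of 0.26 (0.07 to 0.45) and 0.13 (−0.04 to 0.30). The settled entries of miR-411-5p had 499, 588 and 890 reads, with log2 ratios of 0.07 (−0.11 to 0.24) and −0.24 (−0.39 to −0.08). They held only 38.8% of the mean of that arm in the table of DOX 22 h and DOX 1 h, since its leading entry was unsettled.

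miR-494-3p and miR-487b-3p, at similar levels, went opposite ways against DMSO 22 h. miR-494-3p had 78 reads in DMSO 22 h, 140 in DOX 22 h and 160 in DOX 1 h, and log2 ratios of 0.67 (0.26 to 1.09) and 0.17 (−0.17 to 0.51). miR-487b-3p had 199, 153 and 263 reads, and log2 ratios of −0.55 (−0.86 to −0.24) and −0.42 (−0.72 to −0.13), so it was lowest in DOX 22 h at equal depth. This lower level stood mainly in its entry of 19 bases, with 93, 37 and 99 reads, whereas the entry of 20 bases had 95, 97 and 139. miR-656-3p had 64, 81 and 120 reads, and the intervals of both its ratios held 0.

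In the upstream group, miR-127-3p had 116 reads in DMSO 22 h, 209 in DOX 22 h and 220 in DOX 1 h. The hairpin of miR-127 lies antisense to RTL1, and miR-127 is known to cleave the RTL1 transcript. Its log2 ratios were 0.68 (0.35 to 1.02) and 0.29 (0.01 to 0.57), highest in DOX 22 h at equal depth. miR-127-5p, the other arm, had 24, 53 and 63 reads and log2 ratios of 0.96 (0.25 to 1.73) and 0.12 (−0.44 to 0.66). The settled entries of miR-127-5p held 58.2% of its mean in the table of DOX 22 h and DOX 1 h, against 100% for miR-127-3p. By settled reads at equal depth, both arms of hsa-mir-127 were thus lowest in DMSO 22 h.

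miR-136-3p and miR-136-5p differed in direction. miR-136-3p had 184 reads in DMSO 22 h, 253 in DOX 22 h and 313 in DOX 1 h, and log2 ratios of 0.29 (0.01 to 0.57) and 0.06 (−0.19 to 0.30). miR-136-5p had 50, 22 and 46 reads and log2 ratios of −1.34 (−2.15 to −0.60) and −0.68 (−1.51 to 0.06), of which the first has the direction that the library names at 22 h give it. miR-493-5p had 148, 123 and 186 reads, with −0.44 (−0.79 to −0.08) and −0.23 (−0.57 to 0.10). The 2 arms of hsa-mir-337 were both lowest in DOX 22 h at equal depth, with 64, 51 and 76 reads for miR-337-5p and 63, 59 and 106 for miR-337-3p, and log2 ratios against DMSO 22 h of −0.49 (−1.06 to 0.06) and −0.26 (−0.80 to 0.27).

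**Figure D3:**
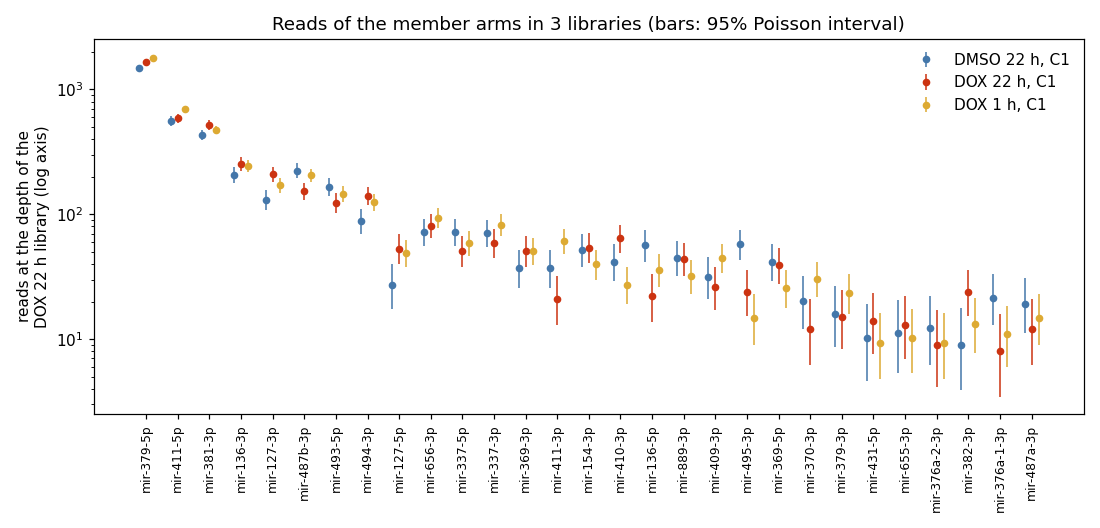
Reads of the 29 member arms in the DMSO 22 h, DOX 22 h and DOX 1 h libraries numbered C1, multiplied to the depth of the DOX 22 h library (log axis), with 95% Poisson intervals as bars. miR-379-5p has 1483, 1655 and 1780 reads on this scale, and most other arms have fewer than 100.

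Few member arms passed the limit of an absolute log2 ratio of 1. Against DMSO 22 h, 1 arm was higher in DOX 22 h and 3 were lower, where 4.14% of all arms compared were higher, 4.51% were lower and 8.65% passed in either direction. The higher arm was miR-382-3p, with 8 reads in DMSO 22 h, 24 in DOX 22 h and 17 in DOX 1 h, at a log2 ratio of 1.36 (0.21 to 2.78). Lower in DOX 22 h, as the libraries are named, were miR-136-5p, miR-495-3p and miR-376a-1-3p. Their settled entries held 74.4%, 52.9% and 52.1% of the arm's mean in the table of DOX 22 h and DOX 1 h. None of the 3 was compared when at least 90% was required there too. The lower level of miR-136-5p stood in its entry at start 16, with 38, 5 and 16 reads. Its entry at start 14 had 12, 17 and 30. miR-495-3p had 51, 24 and 19 reads and a log2 ratio of −1.24 (−2.02 to −0.53), so that both DOX libraries lay under DMSO 22 h. miR-376a-1-3p had 19, 8 and 14 reads and a log2 ratio of −1.37 (−2.82 to −0.16), and miR-376a-2-3p, whose leading sequence is the same, had 11, 9 and 12 reads and −0.44 (−1.91 to 0.95). Entries had to reach a pooled mean of 10 at 22 h. That mean was 15.6 for miR-382-3p, 13.8 for miR-376a-1-3p and 22.5 for the start 16 entry of miR-136-5p. Such weak entries could pass through the library where they were high, so these ratios are not independent of the limit. With 1 and 3 of 29 arms, the counts rest on few reads and lie within a few arms of the background.

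Against DOX 1 h, 1 arm was higher in DOX 22 h and 2 were lower, where the background was 3.05% higher, 2.29% lower and 5.34% in either direction. miR-410-3p, at the downstream part of the cluster, had 37 reads in DMSO 22 h, 64 in DOX 22 h and 35 in DOX 1 h, and a log2 ratio of 1.22 (0.62 to 1.87). It was highest in DOX 22 h, and its ratio to DMSO 22 h was 0.61 (0.02 to 1.25). miR-411-3p had 33, 21 and 78 reads and a log2 ratio of −1.51 (−2.30 to −0.82). miR-370-3p, of the upstream group, had 18, 12 and 39 reads and a log2 ratio of −1.30 (−2.41 to −0.37). The settled entries held 79.5% of the mean of miR-411-3p and 74.1% of that of miR-370-3p, and neither was compared when at least 90% was required. Both were lowest in DOX 22 h at equal depth, with ratios to DMSO 22 h of −0.81 (−1.68 to 0.01) and −0.73 (−1.94 to 0.38).

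Leading entries were chosen by mean in the table of DOX 22 h and DOX 1 h, so miR-136-5p is shown by its entry at start 14. That entry did not carry the lower level against DMSO 22 h. The leading sequences of the arms past the limit, other than those given above, were as follows.
miR-382-3p: tcattcacggacaacacttt
miR-136-5p: actccatttgttttgatgat
miR-376a-1-3p: catacgggaaaatccacgt
miR-410-3p: tataacacagatggcctgt
miR-370-3p: ctgctggggtggaacctggt

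The remaining arms compared had 9 to 65 reads in each library. They were miR-369-3p, miR-369-5p, miR-154-3p, miR-889-3p, miR-409-3p, miR-379-3p, miR-431-5p, miR-655-3p, miR-376a-2-3p and miR-487a-3p. Their log2 ratios lay between −0.65 (miR-487a-3p) and 0.45 (miR-369-3p) against DMSO 22 h, each with an interval that held 0. Against DOX 1 h they lay between −0.75 (miR-409-3p) and 0.60 (miR-369-5p), and the interval of miR-409-3p alone did not hold 0, with an upper bound of −0.08.

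Arm use was strongly one-sided in the leading precursors. Entries stood on both arms for 11 of the 34 precursors, on the 5p arm alone for 7 and on the 3p arm alone for 16. 5p entries started at positions 7 to 26 and 3p entries at 41 to 63 of the human hairpin, as numbered in the tables. By summed mean 66.4% of the cluster came from 5p arms, although 23 of 34 precursors had more 3p than 5p, because hsa-mir-379 (98.5% from 5p) and hsa-mir-411 (97.0% from 5p) dominated. hsa-mir-493 was read on the 5p arm alone, and hsa-mir-381, hsa-mir-487b, hsa-mir-494 and hsa-mir-410 on the 3p arm alone. hsa-mir-337 and hsa-mir-382 were close to even, with 51.2% and 47.5% from 5p.

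Arm use in single libraries could be given for 6 precursors with reads settled on both arms. For hsa-mir-379 the 5p share was 98.9% (98.2 to 99.4) in DMSO 22 h, 99.1% (98.5 to 99.5) in DOX 22 h and 98.7% (98.2 to 99.1) in DOX 1 h, with overlapping intervals. hsa-mir-136 had a 5p share of 21.4% (16.3 to 27.2) in DMSO 22 h, 8.0% (5.08 to 11.9) in DOX 22 h and 12.8% (9.54 to 16.7) in DOX 1 h. Between DOX 22 h and DMSO 22 h its intervals did not overlap. hsa-mir-136 was the 1 precursor of 6 for which this held, where it held for 20% of all 55 precursors compared in the same way. Between DOX 22 h and DOX 1 h it held for hsa-mir-411 alone, at 96.6% (94.8 to 97.9) and 91.9% (90.05 to 93.6), against 14.5% of all precursors, and the leading 5p entry of hsa-mir-411 is missing from these shares. hsa-mir-127 had 17.1%, 20.2% and 22.3% from 5p in DMSO 22 h, DOX 22 h and DOX 1 h, hsa-mir-337 had 50.4%, 46.4% and 41.8%, and hsa-mir-369 had 52.9%, 43.3% and 33.7%, all with overlapping intervals. The arms of a precursor were not settled to the same degree, so the level of these shares is uncertain. With all entries of the table of DOX 22 h and DOX 1 h, the 5p share was 31.5% for hsa-mir-127 and 12.8% for hsa-mir-136. It was 51.2% for hsa-mir-337 and 33.1% for hsa-mir-369.

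**Figure D4:**
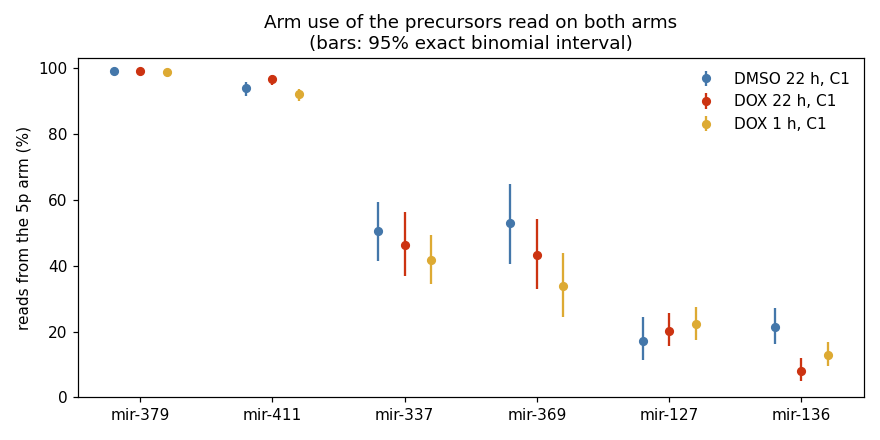
Share of reads from the 5p arm (%) in the DMSO 22 h, DOX 22 h and DOX 1 h libraries numbered C1 for the 6 precursors with reads settled on both arms, with exact 95% binomial intervals. hsa-mir-136 runs from 21.4% in DMSO 22 h to 8.0% in DOX 22 h, and hsa-mir-379 stays near 99% throughout.

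The 5′ start of an miRNA sets its seed, so starts were compared among the leading arms, as listed. Sequences of 22 bases held 0% of the summed mean, in the cluster and outside it. Read trimming is not given in the sources used here, so a listed start may lie inside the 5′ end of the miRNA. miR-379-5p, miR-127-3p, miR-487b-3p, miR-494-3p, miR-656-3p and both arms of hsa-mir-337 each had their settled reads at a single start. Of the arms with more than 1, miR-381-3p had 87.5%, 88.2% and 86.3% of its reads at its leading start in DMSO 22 h, DOX 22 h and DOX 1 h, and miR-493-5p had 72.3%, 71.5% and 71.0%, so both held the same start pattern within their intervals. For miR-411-5p, start 17 held 71.3% of the mean in the table of DOX 22 h and DOX 1 h and start 16 held 28.5%. Among its settled reads alone, which lack the leading entry, start 16 held 75.4% (71.3 to 79.1) in DMSO 22 h, 68.9% (65.0 to 72.6) in DOX 22 h and 75.8% (72.9 to 78.6) in DOX 1 h.

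The starts of hsa-mir-136 differed between DMSO 22 h and the DOX libraries. In miR-136-3p the entry at start 50 had 19 reads in DMSO 22 h, 90 in DOX 22 h and 93 in DOX 1 h, or 10.3% (6.33 to 15.7), 35.6% (29.7 to 41.8) and 29.7% (24.7 to 35.1) of the arm. The main entry at start 51 had 119, 108 and 162 reads. In miR-136-5p the entry at start 16 had 38, 5 and 16 reads, or 76.0% (61.8 to 86.9), 22.7% (7.82 to 45.4) and 34.8% (21.4 to 50.2), while the entry at start 14 had 12, 17 and 30. On both arms the library named DMSO 22 h therefore held more of the later starts than either DOX library. In miR-127-5p, start 26 held 70.8% (48.9 to 87.4) of 24 reads in DMSO 22 h, 41.5% (28.1 to 55.9) of 53 in DOX 22 h and 66.7% (53.7 to 78.0) of 63 in DOX 1 h.

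The share of the leading start had intervals that did not overlap between DOX 22 h and DMSO 22 h in 2 of 6 member arms, the arms of hsa-mir-136, where this held for 25.8% of 62 arms over all precursors. Between DOX 22 h and DOX 1 h it held in 1 of 6, miR-411-5p, against 19.4%. Such differences were thus common between these libraries outside the cluster too.

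**Figure D5:**
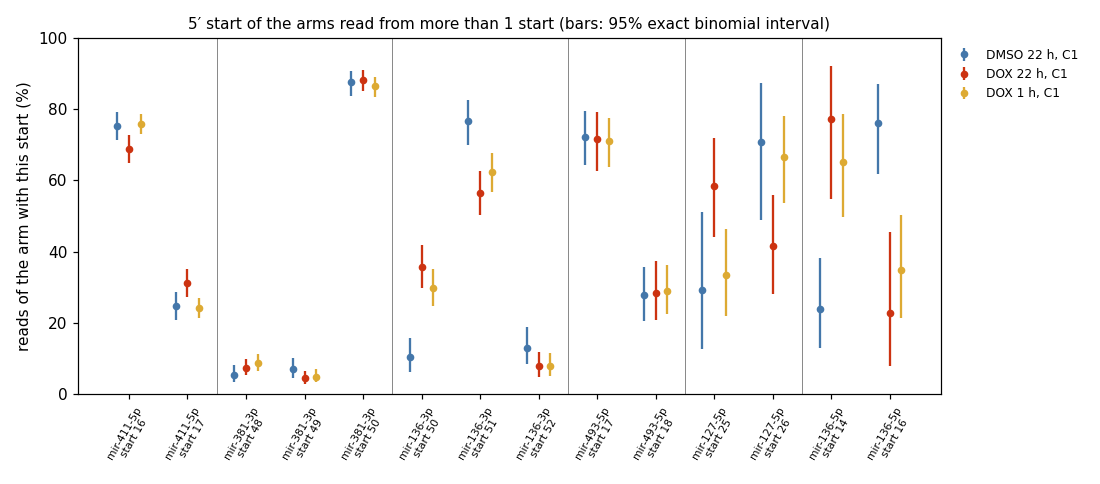
Share of an arm's settled reads (%) at each 5′ start position of the human hairpin, for the 6 leading or listed arms with more than 1 settled start, in the DMSO 22 h, DOX 22 h and DOX 1 h libraries numbered C1, with exact 95% binomial intervals. The arms of hsa-mir-136 stand apart in DMSO 22 h, with 76.6% of miR-136-3p at start 51 and 76.0% of miR-136-5p at start 16.

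The 3′ end of miR-379-5p varied over several bases at the same 5′ start. The entries with settled reads are given here, with the bases beyond the shortest listed form in capitals.
18 bases: gtagactatggaacgtAG
19 bases: gtagactatggaacgtAGG
20 bases, ending in A: gtagactatggaacgtAGGA
20 bases, ending in T: gtagactatggaacgtAGGT
21 bases, ending in AA: gtagactatggaacgtAGGAA
21 bases, ending in TT: gtagactatggaacgtAGGTT
The form of 19 bases held 51.3% (48.5 to 54.0) of the reads in DMSO 22 h, 54.5% (52.1 to 56.9) in DOX 22 h and 53.5% (51.4 to 55.6) in DOX 1 h. The form of 18 bases held 21.3%, 21.9% and 21.8%, and the forms of 20 bases together 22.9%, 20.6% and 21.8%, so lengths were alike within their intervals. Of the forms of 20 bases, the share ending in A was 55.3% (49.5 to 61.0) in DMSO 22 h, 58.9% (53.5 to 64.2) in DOX 22 h and 55.6% (51.1 to 60.01) in DOX 1 h. The forms of 21 bases were the rarest, at 4.55% (3.49 to 5.82), 3.02% (2.25 to 3.96) and 2.84% (2.20 to 3.61). Whether the guinea pig hairpin encodes these last bases was not checked.

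An A-to-G difference inside the sequence was found in 2 arms, both at base 4 counted from 1 at the 5′ end of the listed sequence (A4G, the more abundant form first). The base that differs is in capitals.
miR-411-5p, start 16: agtAgaccgtatagcgtacg
miR-411-5p, start 16: agtGgaccgtatagcgtacg
miR-381-3p, start 48: tatAcaagggcaagctctct
miR-381-3p, start 48: tatGcaagggcaagctctct
Adenosine deaminases acting on RNA (ADARs) convert adenosine to inosine, which is read as G, and miR-411-5p and miR-381-3p are known for such editing. For miR-411-5p the form with A had 295 reads in DMSO 22 h, 287 in DOX 22 h and 527 in DOX 1 h, and the form with G had 12, 29 and 46. The share with G was 3.91% (2.04 to 6.73) in DMSO 22 h, 9.18% (6.23 to 12.9) in DOX 22 h and 8.03% (5.94 to 10.6) in DOX 1 h. The interval of DMSO 22 h overlapped both others. For miR-381-3p the form with G had a mean of 4.22 beside 44.9 for the form with A in the table of DOX 22 h and DOX 1 h, and its reads were not settled. Whether these forms arise by editing, from the guinea pig genome or from sequencing error was not tested. No such form was listed for the entries of miR-411-5p at start 17.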

How the data were processed

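Small RNA libraries (TruSeq Small RNA, Illumina) of 12 samples were processed by the authors with the BaseSpace Small RNA application, aligned to human sequence (hg19, with MultiQC and FastQC, per the submitters' processing notes) and compared with DESeq2. Versions and read trimming are not given in the sources used here. The authors deposited 3 tables. The value used was the mean of DESeq2 normalised counts over the libraries of a comparison, a signal per entry, which the authors pooled over both groups. In both tables with DOX 22 h these means followed from 1 library a group, so the other replicates do not enter them. Other columns hold the authors' fold changes, standard errors, p-values and group values computed from those fold changes, and none was used.

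In the tables at 1 h and 22 h the decimal mark was lost. It was restored from the same entry's mean in the table of DOX 22 h and DOX 1 h, with entries raised to at least 10, the authors' lower limit, which changed 15 entries at 1 h. No mean could be restored for 104 entries at 1 h and 12 at 22 h. With 2 libraries, the ratio of DESeq2 size factors follows from whole reads, so every mean is a whole number after multiplication by a constant. The terms found were 731 and 822 at 22 h, and 9 and 7 in the table of DOX 22 h and DOX 1 h. They satisfied both tables for 1052 of 1052 entries settled at 22 h alone. The library shared by both tables was taken as DOX 22 h from the table names, which no value used here checks. If the names at 22 h were exchanged, the directions between DOX 22 h and DMSO 22 h would turn. The comparisons with DOX 1 h would then be those of DMSO 22 h. Predicted miRNAs named in these tables carry C1 libraries alone. In this way 1216 entries were settled, the most abundant ones remaining open. The method was tested on simulated data.

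Arms were split by start position (a gap of more than 15 bases). Log2 ratios used reads plus 0.5. Intervals are exact 95% binomial (Clopper-Pearson) or Poisson and cover counting error only, as reads without molecular identifiers are not independent molecules. No test was run, since each group has 1 library. Members, lists and position groups were chosen with earlier results of these data known. The text gives values for the 12 leading arms, arms past the limit (absolute log2 ratio of 1, at least 20 reads) and the arms of hsa-mir-127 and hsa-mir-136. Other settings were tried as listed in the closing section. Python 3.11.15, pandas 2.3.3, NumPy 2.4.6, SciPy 1.17.1 and matplotlib 3.10.9 were used.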

Additional observations from a re-analysis of the deposited data

How the results depend on the processing

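The cluster total kept its direction in both comparisons, and stayed within the interval for counting error, when libraries were scaled by total recovered reads, when the most abundant entry or arm was left out, when entries settled within 1 table alone were used, and when sequences listed under another precursor were left out. The log2 ratio then ranged from 0.06 to 0.16 against DMSO 22 h and from −0.08 to −0.05 against DOX 1 h. Some of these intervals held 0. Arms past the limit numbered 4 of 29 and 3 of 29, and 6 and 4 with a limit of 0.8 (13.5% and 8.40% of all arms), and did not change with 1 read added, a minimum of 10 reads or no minimum. Requiring settled entries to hold 90% of the mean in both tables, a setting chosen after seeing the data, left 14 arms, of which 1 passed in each comparison (1 against DMSO 22 h, miR-382-3p, and 1 against DOX 1 h, miR-410-3p), where 4.82% and 3.01% of all arms passed. The counts of lower arms, including miR-136-5p, miR-495-3p, miR-411-3p and miR-370-3p, thus rest on arms whose weaker entries could not be settled. Without hsa-mir-143, the most abundant precursor, the cluster's share was 0.221% at 1 h, 0.104% at 22 h and 0.137% in the table of DOX 22 h and DOX 1 h. Arm gaps of 10 and 20 bases gave the same 11 precursors with both arms. No paired analysis was possible because the means of both tables with DOX 22 h held 1 library a group. For the same reason leaving out each replicate in turn was not run. Entries with a mean under 10 at 22 h and entries of very many reads could not be settled, so differences in weak members were not detectable at this depth.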
